A study of Rattus norvegicus with 12 samples.

Results

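The genes described here are 10 parts of the circadian clock: Arntl, Clock, Per1, Per2, Per3, Cry1, Cry2, Nr1d1, Dbp and Bhlhe40. Their probes were found by gene symbol, and Arntl is listed as Bmal1 in the current rat annotation. They are 10 of 13336 genes named on the array, each with 1 probe, and 8 of them were among the 6724 named genes that could be tested.

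The clock is a feedback loop that runs in nearly every cell. ARNTL and CLOCK form a transcription factor that binds E-box motifs and turns on the Per, Cry, Nr1d1, Dbp and Bhlhe40 genes. PER and CRY proteins then block ARNTL and CLOCK, and NR1D1 represses Arntl itself, so that in rodent heart Arntl RNA is low when Per2, Dbp and Nr1d1 RNA are high and the level of each depends on the time of day.

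Left ventricular RNA of 12 male rats, all 2 months old, was hybridized to Illumina RatRef-12 arrays, 1 heart per array. The 6 VEGF-B TG rats carried VEGF-B, a growth factor of the vascular endothelial family, under the cardiomyocyte-specific alpha-myosin heavy chain promoter. The 6 WT rats were littermates without the transgene, and both groups were on the outbred Wistar background. The hour of tissue collection, the order of the hearts and the light schedule are not given in the sources used here.

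The detection p-value of the array compares a probe with the negative control beads, and a probe entered the test where this p was below 0.05 on 6 or more of the 12 arrays. Between 8820 and 9655 of 22517 probes were detected per TG array, and between 8452 and 9251 per WT array. All 7 cardiomyocyte marker genes tested, among them Myh6 and Tnnt2, were detected on all 12 arrays. Levels are given below as bead intensity as deposited, and differences as log2 of TG minus WT after background correction and quantile normalization. The number of arrays limits the precision, and in whole tissue fewer cells of a type and less RNA per cell cannot be told apart.

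The promoters of 4 members are shown because they hold letters of motifs known from the loop and because these genes stand at different points of it. Each is the 250 bases before a transcript start in RefSeq, build GRCr8, on the strand of the gene, and capitals mark the motif found.
Arntl: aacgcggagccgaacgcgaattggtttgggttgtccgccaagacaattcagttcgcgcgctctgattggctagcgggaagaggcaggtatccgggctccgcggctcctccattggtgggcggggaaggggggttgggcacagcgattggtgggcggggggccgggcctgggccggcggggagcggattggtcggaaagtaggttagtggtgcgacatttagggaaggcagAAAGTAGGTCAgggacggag
Per2: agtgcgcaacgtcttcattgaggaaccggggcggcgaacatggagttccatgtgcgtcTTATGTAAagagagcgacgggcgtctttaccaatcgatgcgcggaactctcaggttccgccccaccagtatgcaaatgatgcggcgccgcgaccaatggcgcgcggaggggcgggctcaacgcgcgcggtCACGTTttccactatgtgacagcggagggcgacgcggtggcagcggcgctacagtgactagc
Nr1d1: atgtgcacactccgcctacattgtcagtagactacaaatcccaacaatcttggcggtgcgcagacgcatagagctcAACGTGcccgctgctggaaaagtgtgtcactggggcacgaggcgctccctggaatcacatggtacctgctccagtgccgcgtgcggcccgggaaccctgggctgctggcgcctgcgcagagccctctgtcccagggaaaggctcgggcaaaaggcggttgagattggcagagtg
Bhlhe40: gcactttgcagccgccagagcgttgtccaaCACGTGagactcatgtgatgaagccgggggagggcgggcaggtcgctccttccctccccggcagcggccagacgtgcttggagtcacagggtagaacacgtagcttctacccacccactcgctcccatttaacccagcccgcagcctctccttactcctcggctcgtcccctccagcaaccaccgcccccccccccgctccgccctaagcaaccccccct
The Arntl window lies on the plus strand at chr1:176766078-176766327, and its capitals are a ROR response element, the motif bound by NR1D1, that begins 20 bases before the start (position -20). The Per2 window lies on the minus strand at chr9:99496994-99497243 and holds a D-box, the motif bound by DBP, at -192 and an E-prime-box, a variant E-box, at -62. The Nr1d1 window lies on the minus strand at chr10:84231813-84232062, with an E-prime-box at -174 that reads AACGTG on this strand. The Bhlhe40 window lies on the plus strand at chr4:143174200-143174449, with an E-box at -220. The last 106 bases of the Arntl window and the last 76 bases of the Per2 window lie inside the annotated gene, since other transcripts start further upstream. The Nr1d1 and Bhlhe40 windows lie outside theirs.

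Motifs were searched on both strands in the RefSeq windows of 9 members, and Cry1 had no entry. The windows searched run from 250 bases before the start to a short stretch after it. Every match in a member lay before the start. The E-box (CACGTG) was found in windows of 2 members, Bhlhe40 and a second Nr1d1 window inside the gene. The E-prime-box (CACGTT) was found in 3 members, Cry2, Nr1d1 and Per2. The D-box (TTATGTAA) was found only in Per2 and the ROR response element only in Arntl. Among all 33469 RefSeq windows of this length, the E-box was in 6.42% and the E-prime-box in 4.83%. The D-box was in 0.893% and the ROR response element in 0.356%. These shares are per window, while members were counted by gene, and Clock and Nr1d1 had 2 windows each. The only windows of Per1 and Per3 lie wholly inside the annotated gene, so the bases before these genes were not searched. A match is a match of letters in the window searched and was not tested as a binding site.

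Only 2 of the 8 tested members differed between the groups, Bhlhe40 higher and Cry1 lower in TG hearts, and both lay close to the threshold. Over all 9054 tested probes, 21.9% passed the same test (limma, Benjamini-Hochberg adjusted p under 0.05), 11.6% higher and 10.3% lower in TG hearts. The 2 of 8 members were thus near the share of the whole array. No member separated the groups without overlap, against 10.8% of all tested probes. The median difference of the 8 members was -0.16, against -0.01 over all tested probes.

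**Figure D1:**
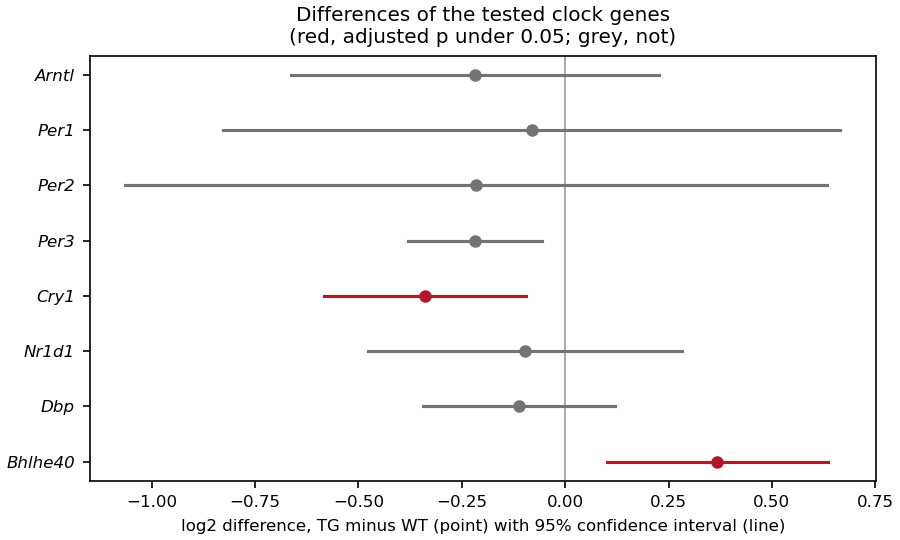
Difference between TG and WT hearts (log2, TG minus WT) for the 8 tested clock genes, with 95% confidence intervals from the limma fit (n = 6 each). Bhlhe40 lies at 0.37 and Cry1 at -0.34, and the intervals of Per1 and Per2 are the widest of the 8.

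Bhlhe40 encodes a basic helix-loop-helix repressor, also known as DEC1, that competes with ARNTL and CLOCK at E-boxes. Its intensity ran from 938 to 1586 with a median of 1165 in TG hearts, against 843 to 1130 with a median of 947.5 in WT hearts. TG replicate 6 at 1586, TG replicate 1 at 1288 and TG replicate 5 at 1203 lay above every WT heart, and the other TG hearts lay within the WT range. The difference was 0.37 (SE 0.125, adjusted p = 0.0477 in limma, 95% interval 0.10 to 0.64). The call was kept in 3 of the 12 fits that left out 1 heart (adjusted p 0.0176 to 0.0977), namely when TG replicates 3 or 4 or WT replicate 6 were omitted.

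Cry1 encodes a cryptochrome, the main repressor of ARNTL and CLOCK together with PER proteins. Its intensity ran from 373 to 441 with a median of 408 in TG hearts, against 416 to 582 with a median of 470.5 in WT hearts. WT replicate 1 at 582 and WT replicate 5 at 568 stood above the rest, and the intensities of the groups overlapped between WT replicate 6 at 416 and TG replicate 6 at 441. Cry1 fell by 0.34 on the log2 scale in TG hearts (SE 0.115, adjusted p = 0.0471 in limma, 95% interval of the difference -0.58 to -0.09). The call was kept in 3 of the 12 fits that left out 1 heart (adjusted p 0.0180 to 0.102), namely when TG replicate 4 or WT replicates 2 or 6 were omitted.

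Neither call was kept with median scaling, cyclic loess normalization or no filter on detection (Bhlhe40 adjusted p 0.0511 to 0.0968, Cry1 adjusted p 0.0544 to 0.225), and the sign of both differences stayed the same. The Bhlhe40 call was also lost when arrays were weighted by quality (adjusted p = 0.0526). The Cry1 call was also lost with the replicate number as a block (adjusted p = 0.0657).

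Markers of some other cells of the ventricle moved with the groups. Their counts stand beside the 11.6% called higher and 10.3% called lower over all tested probes. Of the endothelial markers, 6 of the 9 measured ones were higher in TG hearts and 0 lower, and their mean log2 level ran from 9.77 to 10.13 in TG hearts, against 9.28 to 9.62 in WT hearts. Of the pericyte and smooth muscle markers, 5 of 6 were higher and 1 lower (8.63 to 9.02 in TG, 8.12 to 8.44 in WT), and of the macrophage and leukocyte markers 5 of 5 were higher (8.89 to 9.46 in TG, 8.46 to 8.75 in WT). Of the cardiomyocyte markers, 2 of 7 were lower and 0 higher, with mean levels of 12.33 to 12.41 in TG hearts and 12.41 to 12.48 in WT hearts. Of the fibroblast markers, 1 of 8 was lower and 0 higher (10.69 to 11.09 in TG, 10.52 to 10.95 in WT), and of the erythroid markers 0 of 2 were called (10.48 to 10.92 in TG, 10.29 to 10.84 in WT). The part of these lists in the Bhlhe40 and Cry1 differences was not tested.

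Per3, a PER family member with a lesser role in the loop, narrowly missed the threshold. Its intensity ran from 177 to 194 in TG hearts, against 192 to 221 in WT hearts. By intensity only TG replicate 1 and TG replicate 5, both at 194, reached into the WT range. After normalization it was TG replicate 4 (log2 6.132) and TG replicate 5 (6.162) that lay above the lowest WT heart (6.124). The difference was -0.22 (SE 0.0760, adjusted p = 0.0529, 95% interval -0.38 to -0.06). It passed in 3 of the 12 fits that left out 1 heart, with adjusted p 0.0496 when TG replicate 4 was omitted, 0.0475 for TG replicate 5 and 0.0473 for WT replicate 2. Its probe was the dimmest of the tested members, and its spread between hearts was the smallest of the 8.

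For the other 5 tested members the interval of the difference included 0. Arntl differed by -0.22 (SE 0.208, adjusted p = 0.497, 95% interval -0.66 to 0.23) and Nr1d1 by -0.10 (SE 0.177, adjusted p = 0.740, 95% interval -0.48 to 0.28). Dbp, the D-box activator often used as a readout of the clock, differed by -0.11 (SE 0.109, adjusted p = 0.507, 95% interval -0.34 to 0.12). Per1 and Per2, the main PER repressors of the loop, differed by -0.08 (SE 0.349, adjusted p = 0.898, 95% interval -0.83 to 0.67) and by -0.22 (SE 0.397, adjusted p = 0.745, 95% interval -1.06 to 0.63). The intervals of Per1 and Per2 were the widest of the 8 and leave room for changes in either direction. The sign of the Per1 difference turned when TG replicate 2, TG replicate 3, WT replicate 2 or WT replicate 4 was left out (-0.27 to 0.12 over the 12 fits), and that of Nr1d1 when WT replicate 6 was left out (0.02).

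Clock and Cry2 gave no usable signal with these probes. Clock, the partner of ARNTL, had intensities of 144 to 157 in TG hearts and 149 to 161 in WT hearts and was detected on 0 of 6 TG and 0 of 6 WT arrays. Cry2, the second cryptochrome, had 147 to 168 in TG hearts and 144 to 203 in WT hearts and was detected on 0 of 6 TG arrays and 1 of 6 WT arrays. Both were left out of the test, and a signal at the level of the negative control beads sets no level for either RNA.

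**Figure D2:**
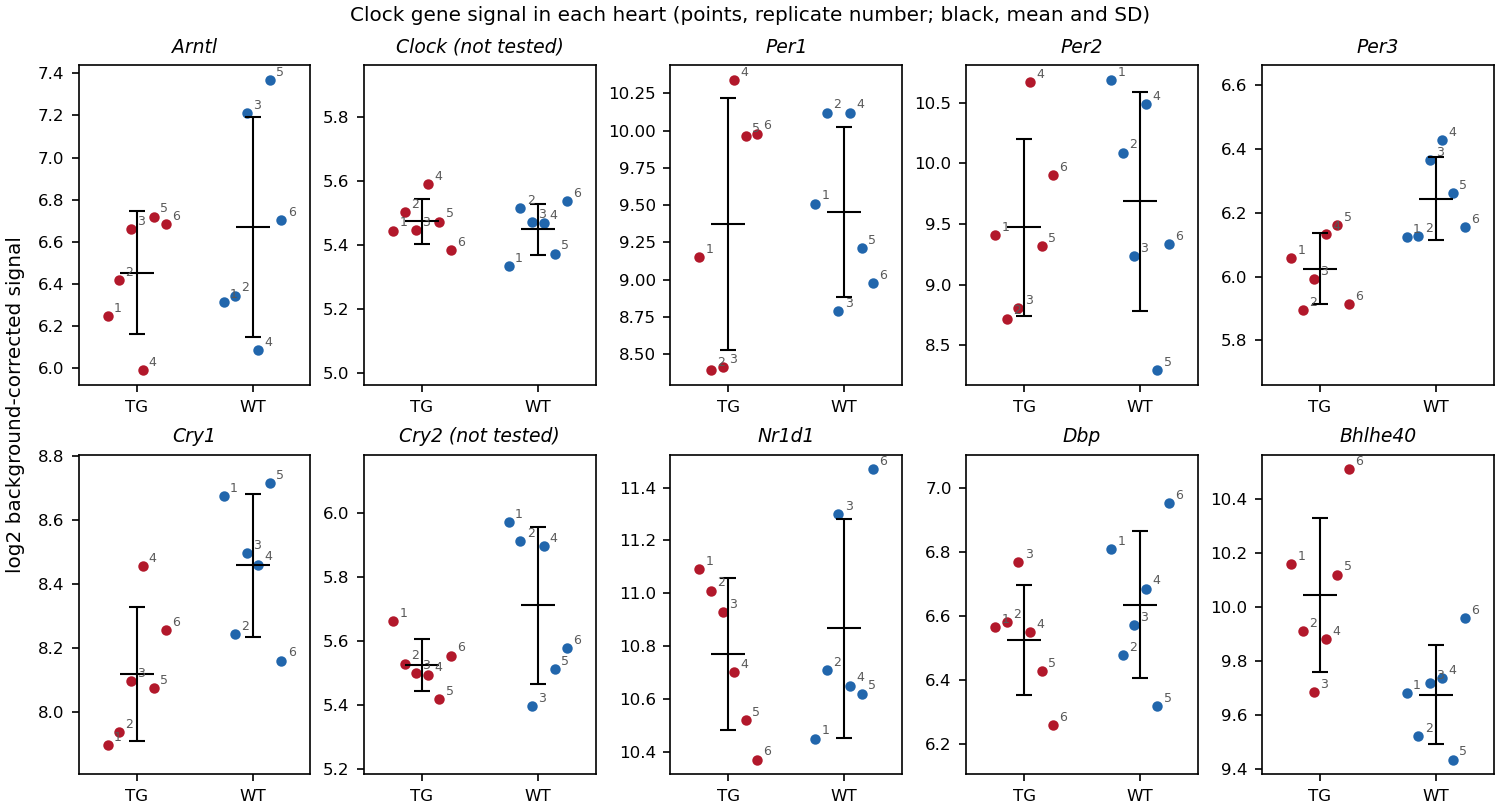
Normalized log2 level of each of the 10 clock probes in every heart, TG left of WT, with points for single hearts, replicate numbers beside them, and the group mean and SD in black (n = 6 each). Per1 and Per2 spread over more than 1 log2 unit within each group, and Clock and Cry2 lie at the level of the negative control beads.

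The spread between hearts of the same group was larger than the difference between the groups for Per1, Per2, Arntl, Nr1d1 and Dbp. The SD within groups was 0.82 for Per2, 0.72 for Per1, 0.42 for Arntl and 0.36 for Nr1d1 on the log2 scale, against a median of 0.165 over all tested probes. Among 9054 tested probes, ordered from the largest SD down, Per2 was number 33, Per1 number 39, Arntl number 167 and Nr1d1 number 297. Bhlhe40 (0.24), Cry1 (0.22) and Dbp (0.20) were closer to the array as a whole, and Per3 (0.12) lay below the median. The median over the 8 members was 0.298. Without background correction the SD of Arntl was 0.198 (number 556), below that of Nr1d1 (0.33, number 117) and Bhlhe40 (0.21, number 443), while Per2 and Per1 were number 17 and number 26. These ranks are a description, and no test was made on them.

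**Figure D3:**
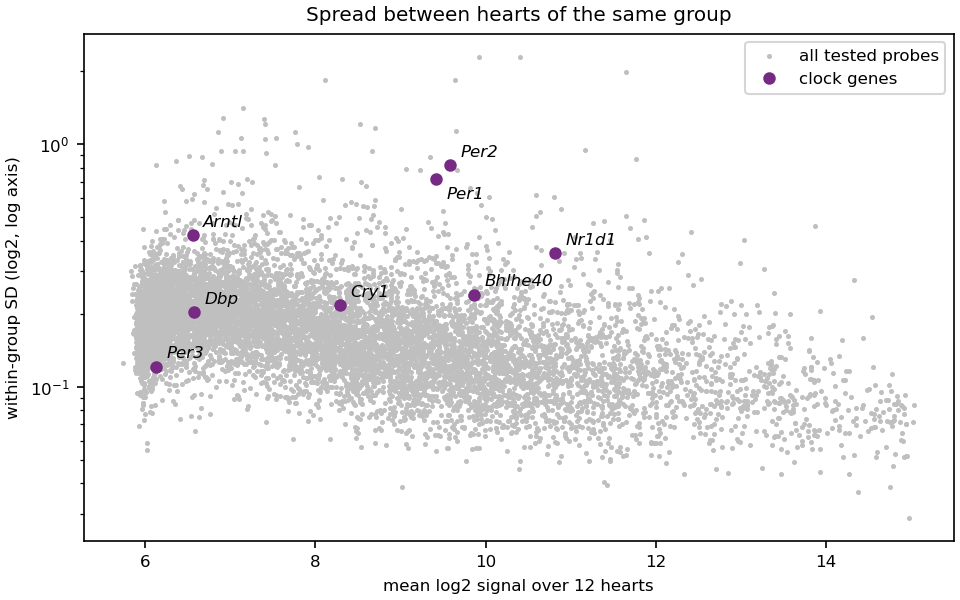
Within-group SD (log2 units, on a logarithmic axis) against mean level (log2) for all 9054 tested probes, with the 8 tested clock genes named. Per2 (0.82), Per1 (0.72), Arntl (0.42) and Nr1d1 (0.36) lie above most probes, and Per3 (0.12) below the median of 0.165.

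Per2 varied most. Its intensity was 830, 577, 596, 1526, 763 and 1096 in TG replicates 1 to 6, against 1992, 1227, 663, 1603, 454 and 775 in WT replicates 1 to 6. The brightest heart was 2.65 times the dimmest among TG hearts and 4.39 times among WT hearts. The high hearts were TG replicate 4, WT replicate 1 and WT replicate 4, and the low ones WT replicate 5, TG replicate 2 and TG replicate 3.

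Arntl, dim and detected in all 12 hearts, had intensities of 205, 221, 234, 178, 232 and 230 in TG replicates 1 to 6, against 225, 206, 261, 200, 304 and 238 in WT replicates 1 to 6. The lowest TG heart and the lowest WT heart were TG replicate 4 and WT replicate 4, both among the highest for Per2. Their Arntl detection p against the negative control beads was 0.0412 and 0.0461, just under the limit of 0.05. The highest Arntl intensity was that of WT replicate 5, the heart with the lowest Per2. WT replicate 1, with the highest Per2, had an Arntl intensity near the WT median of 231.5, and after normalization it lay below the mean of its group.

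Across the 12 hearts, after removal of the group means, Arntl and Per2 ran in opposite directions. Pearson's r was -0.80 (exact permutation within groups, two-sided, p = 0.00445, adjusted p = 0.0311 over the 7 relations of the tested members with Arntl). Spearman's rho was -0.73 (exact permutation p = 0.0134, adjusted p = 0.0942). The sign was the same within TG hearts (r = -0.56) and within WT hearts (r = -0.93). Without WT replicate 5 and WT replicate 3, the hearts farthest from the Arntl median, r was -0.65 over 10 hearts (exact permutation p = 0.0604). Leaving them out also narrows the range of Arntl and lowers the number of hearts. This p therefore cannot show whether the relation rests on those hearts. With all 12 hearts and arrays scaled to a common median, r was -0.69 and the relation did not pass (adjusted p = 0.172).

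**Figure D4:**
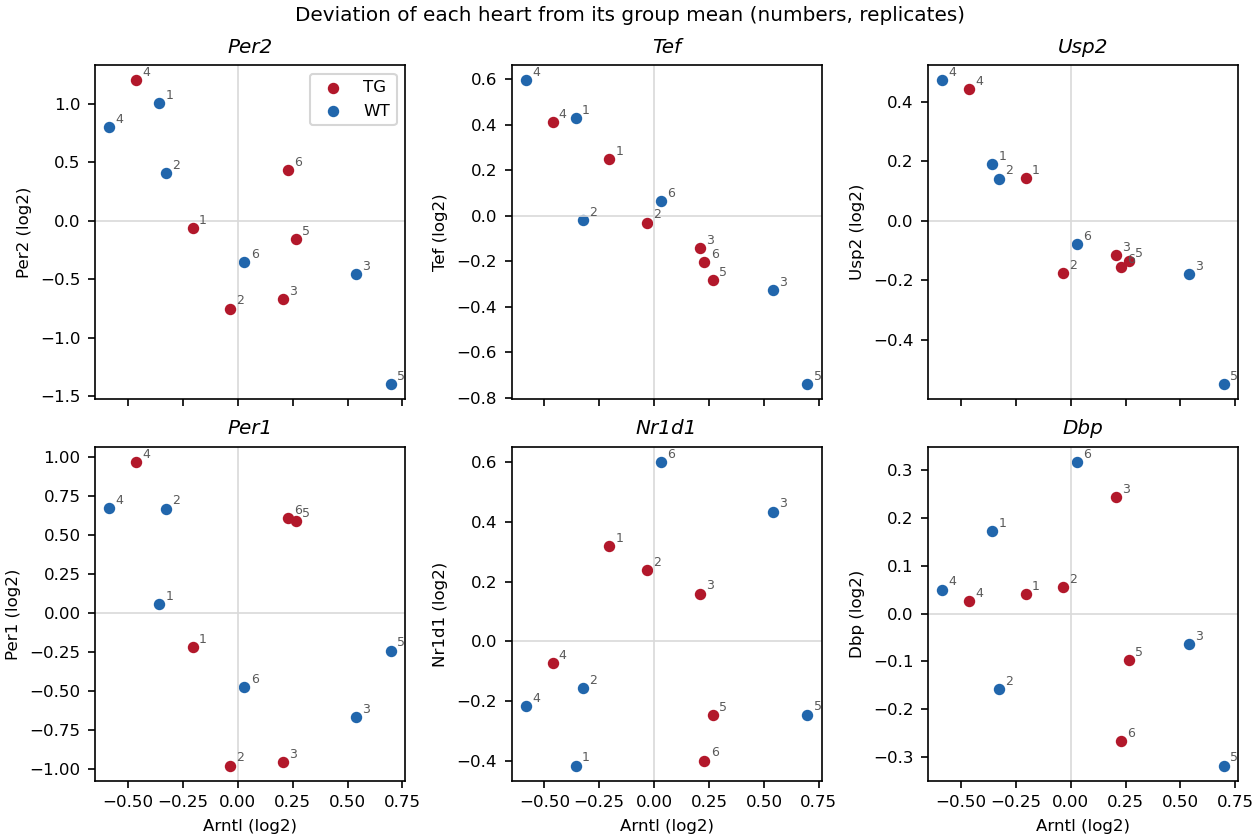
Per2, Tef, Usp2, Per1, Nr1d1 and Dbp against Arntl in each heart, as log2 deviation from the group mean, with TG hearts in red, WT hearts in blue and replicate numbers beside the points. Hearts with high Arntl had low Per2 (r = -0.80 over 12 hearts).

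The other members were less closely tied to Arntl, and none of these relations passed after adjustment. Per1 had r = -0.47 (exact permutation p = 0.0972, adjusted p = 0.340) and rho = -0.54, with r = -0.22 in TG and -0.79 in WT hearts. Dbp had r = -0.41 (exact permutation p = 0.258, adjusted p = 0.603), and this became 0.07 without WT replicate 5 and WT replicate 3. Nr1d1 had r = 0.16 (exact permutation p = 0.667), negative in TG hearts (-0.39) and positive in WT hearts (0.38). Cry1, Bhlhe40 and Per3 had r = 0.10, -0.02 and -0.000778 with Arntl, which became -0.41 for Cry1, 0.34 for Bhlhe40 and -0.43 for Per3 without those hearts.

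Per1 moved with Per2 and against Nr1d1. Per1 intensities were 714, 485, 488, 1252, 1105 and 1148 in TG replicates 1 to 6, against 934, 1251, 524, 1281, 746 and 638 in WT replicates 1 to 6. Those of Nr1d1, the nuclear receptor REV-ERB-alpha, were 2348, 2277, 2120, 1548, 1550 and 1448 in TG replicates 1 to 6, against 1699, 1814, 2427, 1788, 1784 and 3041 in WT replicates 1 to 6. The 3 TG hearts with the most Nr1d1 (replicates 1, 2 and 3) were the 3 with the least Per1, and the WT hearts with the most Nr1d1, replicates 6 and 3, were the lowest for Per1.

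As a description of the pairs, Per1 and Per2 had r = 0.74 over 12 hearts (0.88 in TG, 0.65 in WT). Per1 and Nr1d1 had r = -0.66 (-0.76 in TG, -0.67 in WT), and Cry1 and Nr1d1 r = -0.61 (-0.62 in TG, -0.61 in WT). Nr1d1 and Dbp had r = 0.52 (0.79 in TG, 0.39 in WT). Per2 had r = -0.43 with Nr1d1 and 0.14 with Dbp. Some pairs had no common pattern across groups: Dbp and Bhlhe40 had r = -0.92 in TG hearts and 0.91 in WT hearts, and Per2 and Cry1 0.83 in TG hearts and -0.14 in WT hearts. The pairs named here were chosen after their values were seen, and the difference between groups was not tested.

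**Figure D5:**
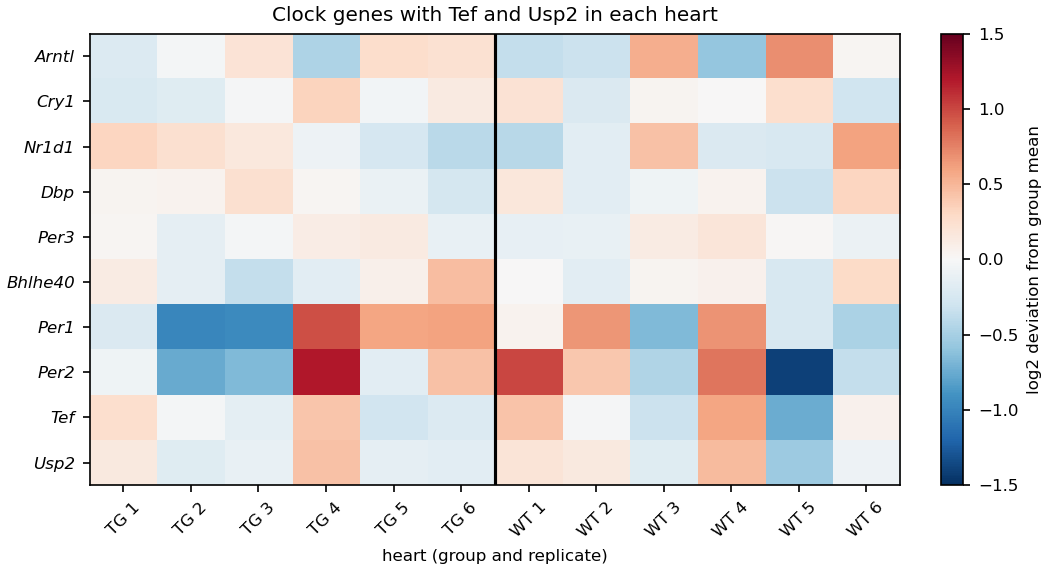
Log2 deviation of the 8 tested clock genes, Tef and Usp2 from the group mean in every heart (colour), TG hearts left of WT hearts. TG replicate 4 and WT replicate 4 combine low Arntl with high Per2 and Per1, and WT replicate 5 has the opposite pattern for Arntl and Per2.

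The probes whose pattern across hearts was most opposite to Arntl included other clock genes. Of 6817 other named tested probes, Tef had the lowest r with Arntl (-0.94) and Usp2 the next (-0.93), followed by Drap1 (-0.92), Mid1ip1 (-0.91) and Nxpe1 (-0.90). Tef encodes a D-box activator closely related to DBP, and Usp2 a deubiquitinase whose RNA cycles in many rodent tissues. The probes most like Arntl were Hmga1 (0.91), Pacc1 (0.90), St3gal6 (0.89), Foxn3 (0.89) and Dyrk2 (0.88). Per2 was number 37 from the bottom of this order. No test was made on the order. The lowest r with Dbp, Per1, Per2 and Nr1d1 was of similar size (-0.91, -0.93, -0.94 and -0.92), each with a gene outside the clock lists.

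Tef intensities were 357, 328, 309, 346, 284 and 294 in TG replicates 1 to 6, against 444, 337, 279, 451, 263 and 350 in WT replicates 1 to 6. Usp2 intensities were 3165, 2619, 2716, 3382, 2542 and 2527 in TG replicates 1 to 6, against 4360, 3717, 2771, 4971, 2456 and 3272 in WT replicates 1 to 6. By intensity, WT replicate 4 and WT replicate 1 were the highest for both genes, and WT replicate 5 the lowest. After normalization, TG replicate 4 (log2 11.88) lay just above WT replicate 1 (11.85) for Usp2. Tef kept the lowest r under all 6 ways of computing the values, and was number 10 (r = -0.89) without WT replicate 5 and WT replicate 3. Usp2 was number 39 (r = -0.67) when arrays were scaled to a common median.

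Dbp was most like Rtn2 (r = 0.94), a reticulon of the endoplasmic reticulum, and most opposite to Cpd (r = -0.91), a carboxypeptidase, with neither among the clock lists. Its intensity changed little, from 200 to 242 in TG hearts and from 212 to 262 in WT hearts.

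Genes that the clock is known to drive in rodent heart or liver were described as a list of 15, of which 14 were tested. None was called higher or lower in TG hearts, against 21.9% of all tested probes, and their median difference was -0.13. Lpl, lipoprotein lipase and the brightest of them, differed by -0.01 (adjusted p = 0.940). Across hearts, 9 of the 14 had a negative r with Arntl, with a median r of -0.35, against 47.8% negative and a median of 0.03 over all other named tested probes. Wee1, a mitotic kinase (r = -0.81), Dgat2, a triglyceride synthesis enzyme (r = -0.78), and Tspan4, a tetraspanin (r = -0.72), followed Usp2. The genes of the list with a positive r were Ucp3 (0.53), Pdk4 (0.36), Nampt (0.27), Bdh1 (0.26) and Lpl (0.11). The genes given here with an r were named after their values were seen.

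Of 18 other genes of the clock network, 9 were on the array and 5 were tested. Of the 5, only Timeless was called, higher in TG hearts, against 21.9% called over all tested probes. The median difference of the 5 was -0.07. Timeless is a clock gene in Drosophila whose mammalian product acts mainly at replication forks. Its intensities were 237 to 275 in TG hearts and 198 to 221 in WT hearts. It had no overlap between the groups, as had 10.8% of all tested probes. Its difference was 0.60 (SE 0.0891, adjusted p = 0.000312). Its probe was dim and was not tested under a stricter detection p of 0.01.

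The remaining 4 did not pass. Nfil3, a repressor at D-boxes that opposes DBP and TEF, differed by -0.20 (adjusted p = 0.205), with intensities of 362 to 471 in TG hearts and 414 to 589 in WT hearts. Tef differed by -0.16 (adjusted p = 0.596), Btrc, a ubiquitin ligase subunit for PER proteins, by -0.07 (adjusted p = 0.75), and Csnk1d, the kinase that marks PER for degradation, by -0.03 (adjusted p = 0.890).

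Inputs that reset the clock in other settings were looked at as lists, and their counts stand beside the 21.9% called over the whole array. Of 8 tested glucocorticoid response genes, 1 was higher and 2 lower in TG hearts: Sgk1, a kinase, at 0.53 (adjusted p = 0.0459), Fkbp5, a chaperone of the glucocorticoid receptor, at -0.46 (adjusted p = 0.0401), and Mt1, a metallothionein, at -0.50 (adjusted p = 0.00972). Of 7 tested immediate early genes, 2 were higher, Myc at 0.78 (adjusted p = 8.72e-05) and Atf3 at 0.55 (adjusted p = 0.00939). Of 5 tested temperature response genes, 2 were higher and 2 lower, with Rbm3, a cold-induced RNA-binding protein, at 0.80 (adjusted p = 0.00528) and Cirbp, another, at -0.25 (adjusted p = 0.0405). The part of these lists in the values of the clock genes was not tested.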

How the data were processed

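Bead intensities (1 value per probe and array) and detection p-values had been summarized by the authors with GenomeStudio and deposited, neither background subtracted nor normalized between arrays; the detection p-value sets each probe against the negative control beads. A deposited table of log2 values had been quantile normalized by the authors with Chipster. Log2 quantile values computed here from the intensities differed from it by at most 0.005. Tool versions of these steps are not given in the sources used here.

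Here neqc of limma 3.58.1 (R 4.3.3) was applied to the intensities, which takes the background from the detection p-values, adds an offset of 16 and quantile normalizes. Probes with detection p under 0.05 on at least 6 of 12 arrays (9054 of 22517) were fitted with lmFit and eBayes, TG against WT, and p-values were adjusted over all of them by Benjamini-Hochberg with a threshold of 0.05. Correlations across hearts used deviations from group means and all 518400 permutations within the groups (Python 3.11.15). Scripts were tested on simulated data. Each rat was 1 replicate, and groups were taken from the sample titles.

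Probes were named from the platform annotation, updated through gene numbers to RefSeq GRCr8: 13787 of 22517 had 1 symbol, 0 had several and 8730 had none here. Every member was named. Of other lists, all tested network genes or up to 3 genes with the smallest adjusted p past the threshold (the brightest where none passed) could be named, and for Arntl and Dbp the 5 probes with the highest and the lowest r. The members and lists were chosen with earlier results of these data known. The alternatives tried were other background corrections and normalizations, the deposited log2 table, no filter and a stricter filter, array weights, the replicate number as a block, a stricter threshold and leaving out each heart.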

Additional observations from a re-analysis of the deposited data

Results flagged for a closer look

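In 1 of 26 sets of 6 hearts examined for the clock genes and the related network, 1 heart lay far from the others. Btrc, a ubiquitin ligase subunit that acts on PER proteins, had a normalized log2 level of 6.907 in TG replicate 2, the lowest of the TG hearts. The gap to the next heart was 0.643 of the range of the group, above Dixon's 95% critical value for 6 samples. Chance gives about 1 such set in 20, so the number found is near that.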

How the results depend on the processing

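The members called were 1 higher (Bhlhe40) and 1 lower (Cry1) in TG hearts. With median scaling, cyclic loess, no filter or an adjusted p under 0.01, 0 were higher and 0 lower, and with array weights 0 were higher. Leaving out each heart gave 0 to 1 higher and 0 to 2 lower. Adjusted p ranged from 0.0326 to 0.225 for Cry1 and from 0.0247 to 0.0968 for Bhlhe40 over the settings with all hearts. Over the whole array, an adjusted p under 0.01 gave 561 higher and 475 lower, and median scaling gave 449 lower, so that 65.0% of calls were higher, against 53.0%. Under the stricter filter 0 other network genes were higher, because Timeless was not tested.

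The correlation of Per2 with Arntl was -0.69 with median scaling (adjusted p = 0.172). That of Per3 changed sign to 0.00868 without background correction, 0.25 with median scaling, 0.0819 with cyclic loess and 0.0326 in the deposited log2 table. That of Bhlhe40 changed to 0.32 with median scaling and 0.00249 with cyclic loess. Without WT replicates 5 and 3, Bhlhe40 was at 0.34, Cry1 at -0.41, Per3 at -0.43 and Dbp at 0.0713. Over the fits without 1 heart, the difference of Per1 ran from -0.2735 to 0.1161 (0.0534 without WT replicate 2, 0.0525 without WT replicate 4, 0.111 without TG replicate 3) and that of Nr1d1 from -0.1803 to 0.0232. The causes were not tested.

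The sample titles number the hearts and state no pairing. Over all tested probes, same-numbered hearts had r from -0.14 to 0.23, against a median of -0.035 for other numbers. Of the TG hearts, 3 of 6 correlated best with the WT heart of their own number. With the replicate number as a block, the SE of the difference fell for Arntl (0.208 to 0.107), Per2 (0.397 to 0.293), Per1, Per3 and Bhlhe40. It rose for Cry1, Nr1d1 and Dbp. In this fit Cry1 had an adjusted p of 0.0657 and Per3 of 0.0482, and 1 member was higher and 1 lower. Whether same-numbered hearts shared a condition was not tested, and the permutations took all hearts as independent. The ranks of the spread of Per2 (17 to 37) and Per1 (26 to 41) changed little between 6 ways of computing the values, while Arntl ranged from 156 to 557 and Nr1d1 from 117 to 429 of 9054.

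Signal over background limits Clock, Cry2 and the dim probes of Arntl, Dbp and Per3. Each gene rests on 1 probe, and 6 hearts per group limit every difference. The hour of collection is not given in the sources used here, so its share in the spread between hearts was not tested.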

Other observations

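Other genes varied across hearts with the clock genes, and all were named after their values were seen, with no test. Per1 was most like Lad1 (r = 0.91 over 12 hearts) and most opposite to Ccl2 (r = -0.93), the chemokine MCP-1. Ddit4, an mTORC1 inhibitor induced by stress and glucocorticoids, had r = 0.88 with Per1. Per2 was most like Gda, guanine deaminase (r = 0.93), and most opposite to Nap1l3 (r = -0.94), and Usp2 had r = 0.88 with it. Nr1d1 was most opposite to Tardbp, the RNA-binding protein TDP-43 (r = -0.92). Por, cytochrome P450 oxidoreductase (r = -0.66), and Klf15, a metabolic regulator in heart and liver (r = -0.65), were also opposite to Arntl.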
